A study of Caenorhabditis elegans with 8 samples.

Results

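Old adult worms were compared with middle-aged ones: 2 arrays of Caenorhabditis elegans at day 12 of adulthood against 3 arrays at day 6. All 8 arrays of the study, 3 of them at day 1, were whole synchronized populations of the wild-type strain N2 Bristol, grown at 20 °C on plates with Escherichia coli OP50 and aged with no intervention other than M9 buffer. The total RNA of each population was hybridised to 1 Affymetrix C. elegans Gene 1.1 ST array, and every array is labelled as a biological replicate. The members are the 26128 genes named by the 26281 of 29317 probes that carry exactly 1 symbol in the platform annotation, each gene read from its brightest such probe. They are the same 26128 genes in the whole series, and 5 of its 8 arrays carry the comparison. How offspring were kept apart from the ageing adults, and how many worms each population held, is not given in the sources used here.

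As background, an adult hermaphrodite of this species makes yolk in the intestine and passes it to the oocytes for the first days of adult life. In the later days egg laying has ended, yolk can pool in the body cavity, and the body wall muscle, the intestine and the cuticle visibly deteriorate. A microarray of a whole population sums all tissues, any embryos inside the animals and any offspring on the plate. In such a sample fewer cells of a type and less RNA per cell cannot be told apart.

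The values are log2 signals and ran from 0.685 to 13.23. On this scale a difference of 1 is a doubling of signal, and values near 2 are the floor of the array: 63.2% of the genes had a mean under 3 over the 8 arrays and are called dim here. A difference that starts or ends below 3 is a lower bound and has no rank among such differences. Array medians lay between 2.32 and 2.4. Replicates correlated at 0.9891 to 0.9898 at day 6 and at 0.987 at day 12, while day 6 and day 12 arrays correlated at 0.9575 to 0.9683. The median standard deviation of a gene was 0.136 at day 6 and 0.173 at day 12. Day 6 replicate 1 stood below the other day 6 arrays for muscle and collagen genes. Day 12 replicate 2 was the more changed of the day 12 arrays for yolk genes. It also correlated less with the day 6 arrays (0.9575 to 0.962) than day 12 replicate 1 did (0.9662 to 0.9683). Many results that rest on either array are given with and without it, but not all.

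More genes were called higher than lower in the older worms, by a margin that depended on the normalization. Of 26128 genes, 1639 were called higher at day 12 (6.27%) and 708 lower (2.71%), together 2347 (8.98%), and 2423 of the 26761 probes with a symbol (9.05%), by limma with Benjamini-Hochberg adjusted p under 0.05. The rise was at least 1 on the log2 scale in 1110 of them (4.25%), and the fall was at least 1 in 453 (1.73%). Among the 9628 genes with a mean of at least 3, 1106 were higher (11.5%) and 637 lower (6.62%). The median difference over all genes was -0.033, and 44.8% of genes had a positive difference. Higher calls made up 69.8% of the calls, 61.6% under quantile normalization and 66.5% under cyclic loess. The shares of 6.27% and 2.71% are the background for the list counts below. In 705 of the higher and 197 of the lower calls the lower day was dim. Without day 12 replicate 2 fewer genes were called, and a lone day 12 array is then assumed to vary like the others. No called gene had overlapping arrays between day 6 and day 12, so leaving out 1 array could not turn the sign of a called gene. Of all genes, 9921 had no overlap (38%).

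**Figure D1:**
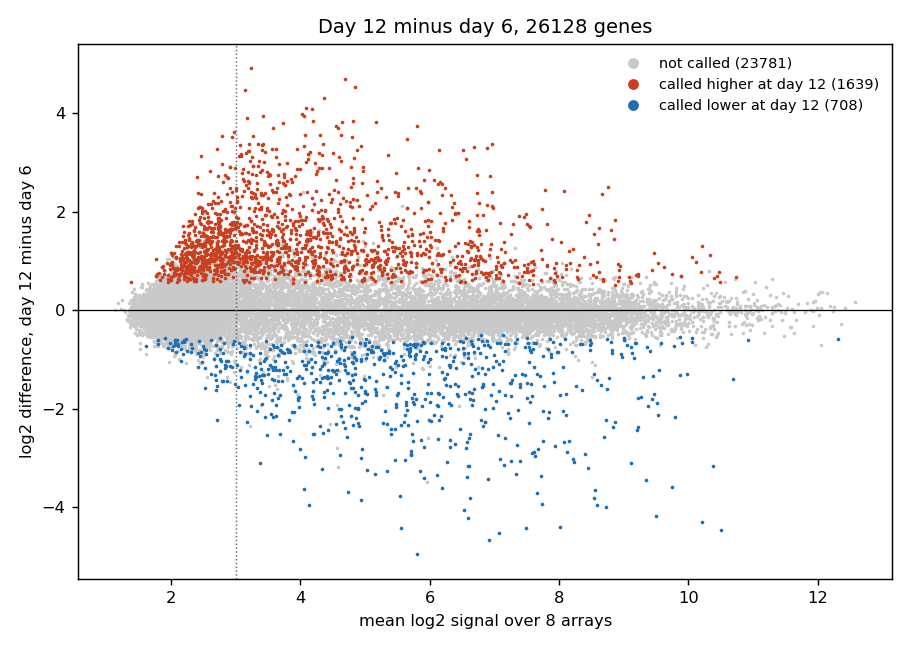
Each point is 1 of 26128 genes. The horizontal axis is the mean log2 signal over the 8 arrays, the vertical axis the log2 difference, day 12 minus day 6, and the dotted line the dim level of 3. The 1639 higher calls (red) crowd at dim to middle signals, and the 708 lower calls (blue) reach to bright signals.

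Y46H3A.5, a gene known here only by its sequence name, was among the genes with large fitted rises. It read 1.98, 2.03 and 2.03 at day 6 and 6.77 and 7.08 at day 12, so it was at the floor on every day 6 array and well above it on both day 12 arrays. The difference was 4.91 (SE 0.16, limma adjusted p = 6.75e-07), a lower bound. At day 1 its mean was 1.98.

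Of the 15 genes with the largest fitted rises, 9 have sequence names only, as do 57.5% of all genes. The other 6 are named genes of several kinds. ilys-2, which encodes an invertebrate-type lysozyme, read 3.21, 4.21 and 3.71 at day 6 and 8.34 and 8.13 at day 12, a rise of 4.52 (SE 0.49, limma adjusted p = 0.00024). ces-2, a bZIP transcription factor of programmed cell death, went from 4.39, 3.16 and 2.85 to 7.48 and 8.09, a rise of 4.31 (SE 0.45, limma adjusted p = 0.000201). In both genes every day 12 array lay more than 3 above every day 6 array. The cuticlin-like gene cutl-16 rose by 3.97, the F-box genes fbxc-40 and fbxa-24 by 3.91 and 3.83, and the homeobox gene ceh-43 by 3.81. The remaining 8 with sequence names only were Y65B4BL.1 (4.69), C27H5.6 (4.47), F43C1.7 (4.1), R03H10.6 (4.08), F19B10.13 (3.95), F32H2.6 (3.94), W04A8.4 (3.84) and F20C5.6 (3.82). C27H5.6, F19B10.13 and fbxc-40 were dim at day 6, so their differences are lower bounds.

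Among the genes with the largest fitted falls, C32H11.4 read 8.53, 8.11 and 8.58 at day 6 and 3.51 and 3.37 at day 12, a fall of 4.96 on the log2 scale (SE 0.35, limma adjusted p = 2.24e-05). sysm-1 went from 9.74, 9.52 and 10.08 to 5.57 and 4.64, a difference of -4.68 (SE 0.27, limma adjusted p = 8.9e-06). The ranking took only genes with no overlap between the days. The 15 largest falls also held asp-14, the yolk genes vit-3 and vit-4, the carboxypeptidase gene ctsa-1.2, the saposin-like genes spp-4 and spp-17, asm-3, an acid sphingomyelinase gene, and the collagens col-140 and col-8. The other members were bcf-1 (-4.43), F55G11.2 (-4.43), Y16B4A.2 (-4.07) and K12H4.7 (-3.97). F55G11.2 and asm-3 ended in the dim range. bcf-1 differed between the day 12 arrays, at 5.11 and 2.0, and without day 12 replicate 2 its difference was -2.87 (limma adjusted p = 0.00202).

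**Figure D2:**
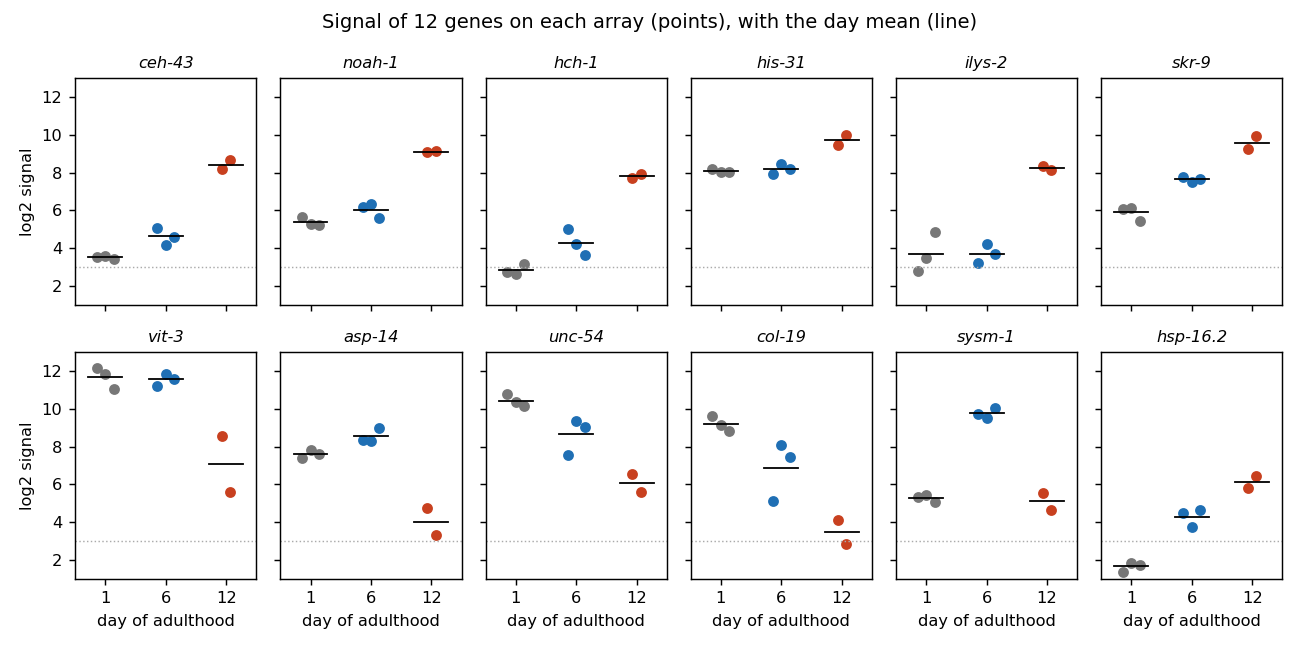
Each panel is 1 gene, with the day of adulthood on the horizontal axis and the log2 signal on the vertical axis. Points are arrays, the black line is the day mean and the dotted line the dim level of 3. All 12 are called genes, and in no called gene do the day 6 points (blue) and day 12 points (red) overlap. In col-19, unc-54 and vit-3 the points of a day spread widely.

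Many genes of the outer matrix that embryos and larvae build were higher at day 12. The cuticlins and apical matrix genes encode zona pellucida domain proteins, lipocalins and related proteins that line the forming cuticle; 21 of their 48 measured members rose, none fell (1 at an unadjusted limma p under 0.05), and the median difference was 0.49 beside -0.033 over all genes. noah-1, a zona pellucida domain protein of the precuticle, read 6.16, 6.37 and 5.61 at day 6 and 9.10 and 9.13 at day 12, a rise of 3.07 (SE 0.23, limma adjusted p = 2.81e-05). Its paralog noah-2 went from 5.40, 5.43 and 5.27 to 8.2 and 8.30, a rise of 2.88 (SE 0.16, limma adjusted p = 7.3e-06). The day 12 arrays of both genes lay close together and far above day 6. fbn-1, a fibrillin-like matrix protein, rose by 3.12 from a dim day 6 level of 2.57, lpr-3, a lipocalin-related protein, rose by 3.38, and cutl-20 rose by 3.34. With each of the 5 arrays left out in turn the list had 17 to 21 higher calls and no lower one.

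Markers of embryos and of larvae were also called higher more often than lower. Of 41 measured zygotic embryo genes, switched on in the embryo itself, 13 rose and 1 fell, with a median of 0.39. hch-1, the hatching enzyme, an astacin protease that digests the eggshell, read 5.01, 4.22 and 3.65 at day 6 and 7.74 and 7.94 at day 12, a rise of 3.55 (SE 0.33, limma adjusted p = 0.000101). Its mean at day 1 was 2.84, and each later day lay above every array of the day before. The epidermal GATA factor gene elt-1 rose by 1.48, and the T-box genes tbx-38, tbx-8 and tbx-11 by 1.82, 1.7 and 1.23; tbx-11 missed the threshold without day 12 replicate 2 (1.12, limma adjusted p = 0.0622). nhr-25, an NR5A-type nuclear receptor needed in the embryonic and molting epidermis, went from 3.73, 3.77 and 3.68 to 6.67 and 6.56, a rise of 2.89 (SE 0.24, limma adjusted p = 4.54e-05).

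Of 31 larval and molting genes, 10 rose and none fell, with a median of 0.38; noah-1, noah-2 and fbn-1 stand in this list too. dpy-3, a larval cuticle collagen, rose by 2.72 from a floor level of 1.87 at day 6. hbl-1, the hunchback-like timing factor of early larval stages, went from 4.39, 4.47 and 4.42 to 6.63 and 5.92, a rise of 1.86 (SE 0.31, limma adjusted p = 0.00351). Beside these, 4 of 18 epidermis markers rose and none fell, with a median of 0.13 that was -0.06 without day 12 replicate 1 and 0.34 without replicate 2.

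Some developmental transcription factors and histones were higher as well, while most members of these lists were not called. The homeobox factors, a list that also holds the muscle factor gene hlh-1, had 14 of 89 members higher and none lower, with a median of 0.07. ceh-43, the Distal-less homolog, read 5.07, 4.19 and 4.62 at day 6 and 8.2 and 8.67 at day 12, a rise of 3.81 (SE 0.25, limma adjusted p = 1.44e-05). vab-3, the PAX6 homolog of head development, went from 2.6, 2.6 and 2.43 to 6.00 and 5.80, a rise of 3.36 that is a lower bound (SE 0.18, limma adjusted p = 7.3e-06). The Six-type gene ceh-32 rose by 2.36, the LIM homeobox gene lim-7 by 2.26 and the POU gene unc-86, a factor of sensory neuron identity, by 2.40 from a dim level. Nuclear hormone receptors had 31 of 275 members higher and 1 lower, with a median of 0.08. The 11.3% higher stood beside 6.27% of all genes and 8.54% of protein-coding genes. Of the 275, 92 had a mean of at least 3 over the 8 arrays, and 189 were dim at day 6. Fewer receptors were called higher without day 12 replicate 2.

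Of 26 histone genes, most of them core histones, 9 rose and none fell, with a median of 0.36; without day 12 replicate 2 the rises were 4. his-39 read 8.28, 8.5 and 8.57 at day 6 and 9.6 and 9.96 at day 12, a rise of 1.33 (SE 0.17, limma adjusted p = 0.000766). his-31 and his-8 rose by 1.55 and 1.17 and the linker histone gene his-24 by 3.27, from 3.1, 3.25 and 3.07 to 5.99 and 6.83. Core histone genes are close copies of one another, so their probes may share signal. Of 47 replication and division genes 1 rose and none fell. It was cyd-1, which encodes cyclin D, from 4.24, 4.36 and 4.46 to 6.42 and 6.46 (a rise of 2.09, SE 0.16, limma adjusted p = 3.1e-05), and the median of the list was 0.02.

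Oocyte and eggshell genes had more lower than higher calls, and sperm genes more higher than lower ones. The share of germline markers called lower was 2.63%, near the 2.71% of all genes. Germline markers had no member higher and 1 of 38 lower (0 and 11 at an unadjusted limma p under 0.05), the meiotic gene msh-5 (-0.93, limma adjusted p = 0.009; 0.101 without day 12 replicate 2), with a median of -0.28. Their mean was 7.47 to 7.51 on the day 6 arrays and 7.37 and 7.09 on the day 12 arrays. Oocyte and eggshell genes had 4 of 34 lower and 1 higher, with a median of -0.39, and none in either direction without day 12 replicate 2; at an unadjusted limma p under 0.05, 21 were lower and 1 higher. The count of oocyte and eggshell genes called lower depended on the moderation and the filter: it was 13 with an intensity trend and robust moderation, 11 when dim probes were left out, and 0 when more than a 1.2-fold change was required. For the germline markers the same alternatives gave 5, 5 and 1. The oocyte factor gene lin-41 read 9.44, 9.57 and 9.51 at day 6 and 8.90 and 8.62 at day 12, a fall of 0.75 on the log2 scale (limma adjusted p = 0.0121; 0.12 without day 12 replicate 2), and the 1 that rose was the eggshell gene perm-2 (0.67, limma adjusted p = 0.0314; 0.158 without day 12 replicate 2, and past 0.05 in 3 of the 4 other leave-one-out fits).

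Sperm genes had 12 of 82 higher and 1 lower, with a median of 0.29, but 1 higher when day 12 replicate 2 was left out, and 4 when either day 6 replicate 1 or day 6 replicate 3 was. msp-40, a major sperm protein gene with many close copies, read 2.31, 3.0 and 2.23 at day 6 and 4.37 and 5.63 at day 12, a difference of 2.48 (limma adjusted p = 0.00859; 0.119 without day 12 replicate 2). Male markers had no call by limma among 15, also none at an unadjusted p under 0.05, and their mean stayed dim, at 2.33 to 2.5 on the day 6 arrays and 2.5 on both day 12 arrays. The zygotic embryo list had a mean of 3.7 to 3.74 on the day 6 arrays and 4.25 and 4.34 on the day 12 arrays, and the larval list 3.42 to 3.59 and then 4.23 and 4.19. The part of embryos or larvae in the rises was not tested.

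**Figure D3:**
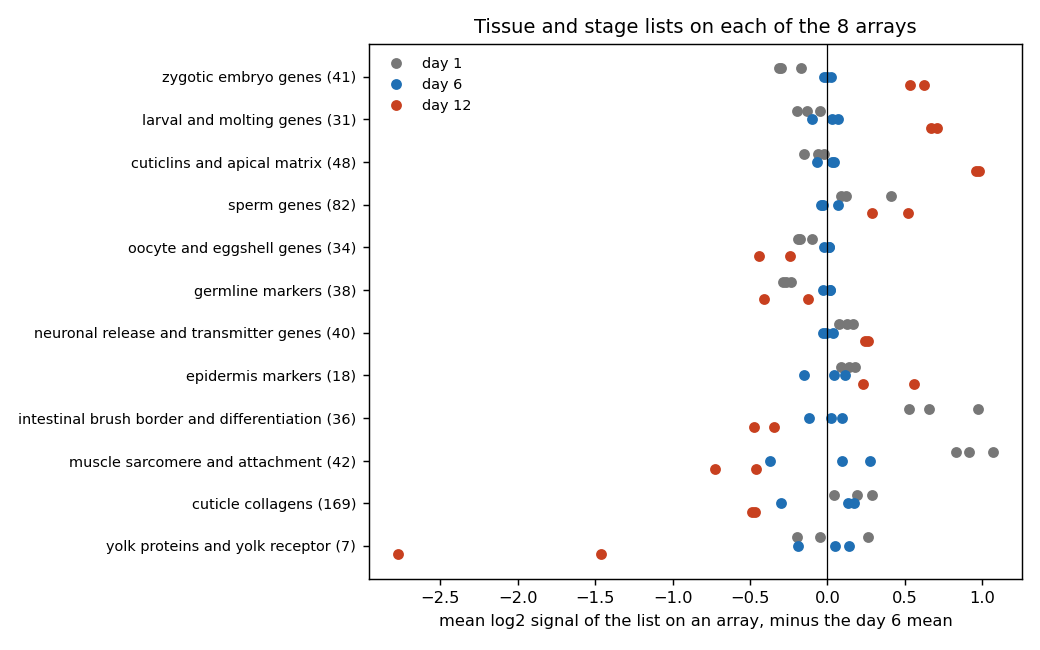
Each row is 1 tissue, stage or matrix list with its number of measured genes in brackets. Points are arrays, and the horizontal axis is the mean log2 signal of the list on that array minus the day 6 mean. The day 12 arrays (red) sit to the right of day 6 (blue) for embryo, larval, apical matrix, sperm, neuronal and epidermal lists and to the left for the oocyte, germline, intestinal, muscle, collagen and yolk lists.

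Yolk genes were lower in the older worms, by very unequal amounts. Of the 6 vitellogenin genes and rme-2, the yolk receptor of the oocyte, 5 fell and none rose, with a median of -0.71; 3 fell with either day 12 replicate 2 or day 6 replicate 2 left out. At an unadjusted limma p under 0.05 all 7 were lower. vit-3 read 11.21, 11.87 and 11.62 at day 6 and 8.60 and 5.6 at day 12, a fall of 4.47 on the log2 scale (SE 0.68, limma adjusted p = 0.00189). vit-4 went from 11.05, 11.58 and 11.36 to 8.54 and 5.51, a difference of -4.30 (SE 0.66, limma adjusted p = 0.00193), and vit-1 from 10.22, 10.62 and 10.49 to 8.02 and 5.66 (-3.60, SE 0.54, limma adjusted p = 0.00175). Both day 12 arrays were below all day 6 arrays in the 3 genes, and day 12 replicate 2 was lower than replicate 1 by over 2 in each.

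The size of the fall therefore rests on 1 array: without day 12 replicate 2 the difference was -2.97 for vit-3 (limma adjusted p = 0.00417) and -2.79 for vit-4 (limma adjusted p = 0.00135), and without replicate 1 it was -5.97 and -5.82. vit-3 and vit-4 have close sequences, so their probes may not tell them apart. Other vitellogenins, as bright at day 6, changed by less than 1. vit-2 read 11.67 to 11.89 at day 6 and 11.32 and 11.29 at day 12 (-0.47, limma adjusted p = 0.177), and vit-5 12.10 to 12.58 and then 11.84 and 11.48 (-0.71, limma adjusted p = 0.0606); vit-5 was called under 4 alternatives, namely quantile normalization, an intensity trend with robust moderation, dim probes left out, and day 6 replicate 1 left out. vit-6 fell by 0.59 on the log2 scale (limma adjusted p = 0.0457), but p was past 0.05 with any 1 of the 5 day 6 and day 12 arrays left out, from 0.0795 to 0.276. rme-2 fell by 0.68 (limma adjusted p = 0.0135), with p of 0.113 without day 12 replicate 2 and 0.0531 without day 6 replicate 2.

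Many digestive proteases of the gut were lower. Of 40 aspartyl, cathepsin and carboxypeptidase genes, 16 fell and 1 rose, with a median of -0.86, and 14 to 17 fell with any 1 of the 5 arrays left out. asp-14, an aspartyl protease gene, read 8.38, 8.30 and 9.02 at day 6 and 4.74 and 3.33 at day 12, a difference of -4.53 (SE 0.36, limma adjusted p = 4.19e-05). asp-13 went from 9.67, 9.49 and 9.4 to 6.12 and 5.61 (-3.66, SE 0.18, limma adjusted p = 7.3e-06), and the serine carboxypeptidase gene ctsa-1.2 from 8.78, 8.96 and 9.04 to 5.32 and 3.72 (-4.41, SE 0.36, limma adjusted p = 4.49e-05). The lowest day 6 array was more than 3 above the highest day 12 array in all 3 genes. The 1 that rose was the cathepsin B-like gene cpr-2, by 3.52 from a floor level of 2.16 to 6.11 and 5.25.

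Some other intestinal genes fell too. Among 36 genes of the brush border and of intestinal differentiation 13 fell and 2 rose, with a median of -0.31, and 4 fell without day 12 replicate 2. pho-1, an intestinal acid phosphatase, read 5.69, 6.79 and 6.66 at day 6 and 4.03 and 3.28 at day 12 (-2.73, SE 0.37, limma adjusted p = 0.000982). vha-6, the V-ATPase subunit of the apical gut membrane, fell by 2.05, and 2 of 21 V-ATPase subunits fell in all. The intermediate filament gene ifb-2 fell by 1.5 (limma adjusted p = 0.0734 without day 12 replicate 2).

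aqp-2, an aquaporin, went the other way: it read 5.85, 5.77 and 5.74 at day 6 and 9.10 and 9.20 at day 12, a rise of 3.36 (SE 0.15, limma adjusted p = 4.31e-06). Its replicates lay close together on both days.

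Innate immunity genes were called in both directions. Of 12 genes in a list of infection response genes, 8 fell and 2 rose, with a median of -2.13. With any 1 of the day 6 arrays left out, 8 were called lower. irg-4 read 5.99, 5.49 and 7.03 at day 6 and 2.87 and 1.76 at day 12 (-3.85, a lower bound, SE 0.51, limma adjusted p = 0.000835). irg-8 fell by 2.93, irg-3 by 2.88 and dod-24 by 3.41. irg-2 rose instead, from 4.31, 4.17 and 3.39 to 6.92 and 7.40, by 3.20 (SE 0.33, limma adjusted p = 0.0002).

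Lysozymes, saposin-like and thaumatin-like genes, whose products attack bacterial walls and membranes, had 14 of 49 members lower and 6 higher, with a median of -0.21; only 1 was higher without day 12 replicate 2. spp-17, a saposin-like gene, read 10.41, 10.82 and 9.82 at day 6 and 6.78 and 5.54 at day 12 (-4.19, SE 0.38, limma adjusted p = 9.17e-05), and spp-4 went from 7.80, 7.62 and 7.33 to 3.42 and 3.29 (-4.23, SE 0.24, limma adjusted p = 7.95e-06). The lysozyme genes lys-2 and lys-8 fell by 3.08 and 2.89. Against these, ilys-2 rose as given above. ilys-3 read 5.87, 6.49 and 8.36 at day 6 and 10.05 and 10.33 at day 12 (3.29, limma adjusted p = 0.0403), with p from 0.112 to 0.228 when either day 12 array or day 6 replicate 1 or 2 was left out, and 0.181 with an intensity trend and robust moderation.

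C-type lectins, a large family of secreted sugar-binding proteins, had 27 of 240 lower and 7 higher, with a median of -0.12, and 17 lower without day 12 replicate 2. clec-85 went from 7.58, 7.32 and 7.76 to 5.09 and 3.86 (-3.08, SE 0.31, limma adjusted p = 0.000156), and clec-186 from 9.15, 8.97 and 8.98 to 6.59 and 6.12 (-2.68, SE 0.18, limma adjusted p = 1.87e-05). clec-266 moved the other way, from 6.96, 6.05 and 6.9 to 9.70 and 10.17 (3.30, SE 0.36, limma adjusted p = 0.000261), and clec-196 rose by 2.99.

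Small secreted antimicrobial peptide genes, many of them epidermal, had 8 of 64 higher and 1 lower, with a median of 0.18, and 5 higher without day 12 replicate 2. nlp-34 read 6.86, 6.74 and 4.87 at day 6 and 8.14 and 8.97 at day 12 (2.39, limma adjusted p = 0.015; 0.167 without day 12 replicate 2). cnc-6 and abf-2 rose by 2.37 and 1.64. The member that fell was cnc-7, from 9.23, 8.39 and 7.96 to 6.60 and 6.42 (-2.02, limma adjusted p = 0.0109), which missed the threshold without either day 12 array (0.0595 and 0.103).

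The pals genes, some of which respond to intracellular pathogens, had 6 of 35 higher and none lower (median 0.34), and 3 to 9 higher with an array left out. pals-26 rose by 1.80 and pals-27 by 1.64, the latter from a floor level of 2.13. In cht-1, the 1 called gene among 36 chitinase and chitinase-like genes, the signal rose from 4.64, 4.12 and 4.89 to 7.45 and 7.82 (3.09, SE 0.32, limma adjusted p = 0.000207).

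Of the ubiquitin ligase adapters, Skp1-related and F-box genes had more higher than lower calls, MATH and BTB domain genes did not, and the proteasome had no call. The Skp1-related genes encode the link between cullin and F-box proteins; 8 of 20 rose, none fell, and the median was 0.66, with 5 to 10 higher when an array was left out. skr-9 read 7.79, 7.49 and 7.69 at day 6 and 9.26 and 9.94 at day 12 (1.94, SE 0.26, limma adjusted p = 0.000847), and skr-21 went from 6.29, 5.73 and 5.54 to 7.92 and 8.72 (2.47, SE 0.27, limma adjusted p = 0.000274). Of 336 F-box genes, the substrate adapters, 45 rose and 3 fell, 288 were not called (median 0.08), and 21 rose without day 12 replicate 2. fbxc-51 went from 4.7, 4.91 and 4.52 to 6.98 and 7.38 (2.47, SE 0.20, limma adjusted p = 4.49e-05), and fbxc-39 rose by 3.02 from a dim level. MATH and BTB domain genes, adapters of another cullin, had 4 of 103 higher (3.88%) and 5 lower (4.85%), with a median of -0.09. None of 32 proteasome subunits was called in either direction by limma, nor did any have an unadjusted p under 0.05, and their median was -0.12.

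**Figure D4:**
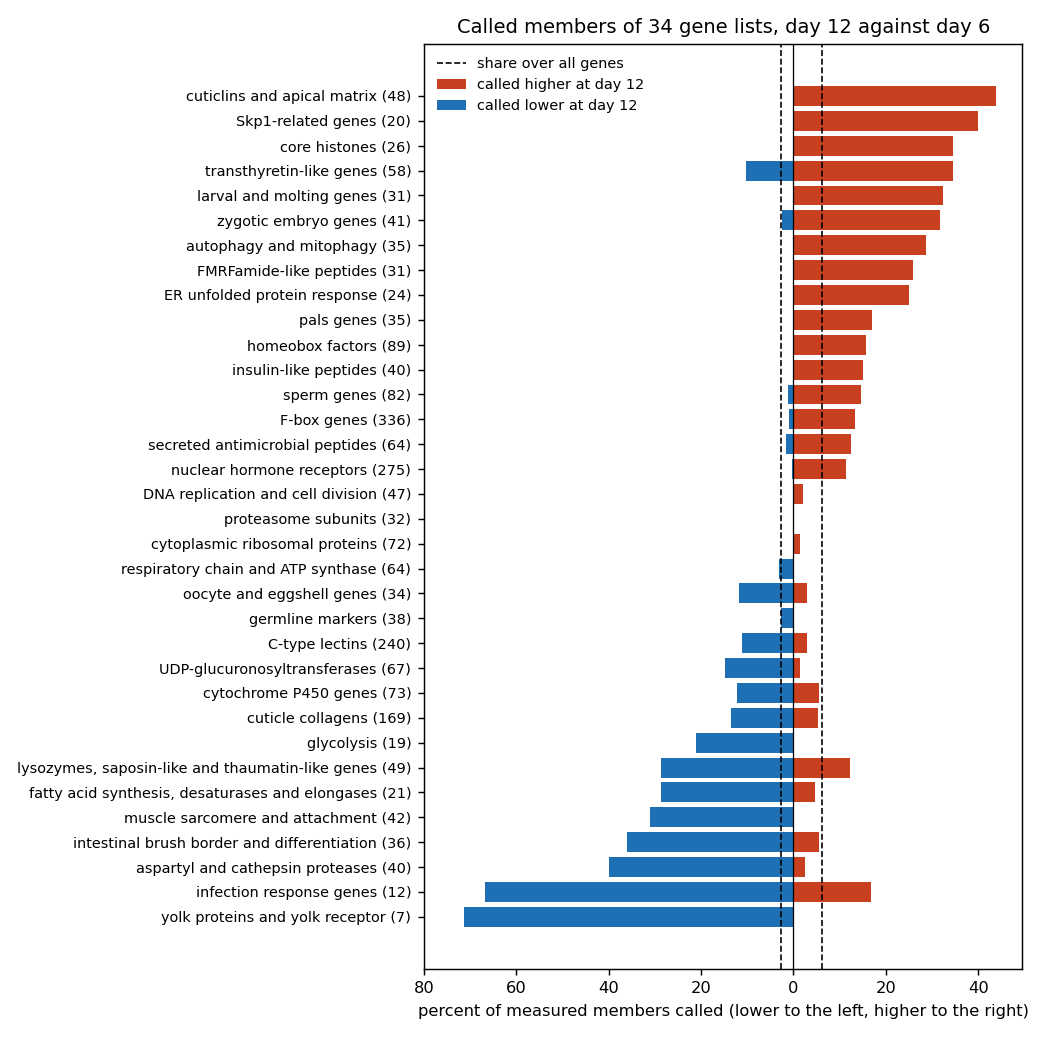
Each row is 1 gene list with its number of measured members in brackets. Bars give the percent of those members called higher at day 12 (red, to the right) and lower (blue, to the left), and the dashed lines give the shares over all genes, 6.27% and 2.71%. Lists of few genes, such as the 7 yolk genes, move by large steps.

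Some muscle genes were lower at day 12. Of 42 measured genes of the sarcomere and its attachment to the body wall, 13 fell and none rose, with a median of -0.45; at an unadjusted limma p under 0.05, 18 were lower and 3 higher. unc-54, the major myosin heavy chain of body wall muscle, read 7.56, 9.37 and 9.07 at day 6 and 6.58 and 5.61 at day 12 (-2.57, SE 0.48, limma adjusted p = 0.0066). tnt-2, a troponin T gene, went from 6.60, 8.67 and 8.4 to 5.49 and 3.54 (-3.38, SE 0.66, limma adjusted p = 0.00861). In both genes day 6 replicate 1 was the lowest day 6 array and lay about 1 above the nearest day 12 array.

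Both calls were lost without day 12 replicate 2, with limma adjusted p of 0.0983 for unc-54 and 0.115 for tnt-2, and that of tnt-2 also with an intensity trend and robust moderation (0.0763). The troponin I gene unc-27 was more even: it read 9.07, 9.93 and 9.76 and then 7.62 and 7.30 (-2.13, SE 0.26, limma adjusted p = 0.000475). mlc-1 and mlc-2, which encode myosin light chains, fell by 2.03 and 1.79. The mean of the muscle list was 5.48, 6.13 and 5.95 on the day 6 arrays and 5.39 and 5.13 on the day 12 arrays, so day 6 replicate 1 lay close to day 12. With day 6 replicate 1 left out 16 genes fell, and with day 12 replicate 2 left out 5 did.

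Cuticle collagens, the structural proteins of the worm's exoskeleton, had more lower than higher calls. Of 169 members 23 fell (13.6%, beside 2.71% of all genes) and 9 rose (5.33%, beside 6.27%), with a median of -0.22; 118 of them were dim at day 6, and the falls among the cuticle collagens were 29 with day 6 replicate 1 left out, 10 with day 12 replicate 2 left out and 13 with an intensity trend and robust moderation. col-140 read 7.80, 10.08 and 9.42 at day 6 and 6.14 and 4.07 at day 12 (-4.0, SE 0.70, limma adjusted p = 0.00448). col-19, an adult cuticle collagen, went from 5.15, 8.07 and 7.44 to 4.1 and 2.83 (-3.42, SE 0.71, limma adjusted p = 0.0122), col-8 fell by 3.93 (limma adjusted p = 0.00742), and col-80 by 3.81 (limma adjusted p = 0.014). All 4 were lowest at day 6 on replicate 1, by over 1.

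Those 4 collagen calls were lost without day 12 replicate 2, with limma adjusted p of 0.0665 for col-140, 0.151 for col-19, 0.106 for col-8 and 0.176 for col-80. They were also lost with an intensity trend and robust moderation, at 0.0563, 0.0903, 0.0744 and 0.102 in the same order. For col-80 the same held without day 6 replicate 3, with 0.0528. col-93 shows the spread at its widest: it read 1.54, 8.0 and 7.32 at day 6 and 2.38 and 1.89 at day 12, and was not called (-3.49, limma adjusted p = 0.225), whereas without day 6 replicate 1 the difference was -5.53 (limma adjusted p = 0.000189). col-73 was even at day 6, at 5.86, 6.34 and 6.39, and fell to 1.99 and 3.14 (-3.64, SE 0.48, limma adjusted p = 0.000786).

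Several genes of fat metabolism were lower. Of 21 genes of fatty acid synthesis, desaturation and elongation 6 fell and 1 rose (median -0.24), and of 64 genes of fatty acid activation and beta-oxidation 10 fell and 4 rose (median -0.19; 5 and 1 without day 12 replicate 2). Among the activation and beta-oxidation genes 6.25% were called higher, near the 6.27% of all genes, and 15.6% lower, beside 2.71%. elo-6, an elongase of branched-chain fatty acids, read 9.56, 9.74 and 9.60 at day 6 and 7.73 and 7.93 at day 12 (-1.80, SE 0.15, limma adjusted p = 5.32e-05), and the elongase genes elo-2 and elo-5 fell by 1.37 and 1.33. acdh-1, an acyl-CoA dehydrogenase, went from 8.63, 9.13 and 8.81 to 6.12 and 5.19 (-3.20, SE 0.28, limma adjusted p = 6.8e-05).

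The desaturase gene fat-7 read 8.22, 8.07 and 7.90 and then 5.98 and 4.35 (-2.90, limma adjusted p = 0.0131; 0.164 without day 12 replicate 2, and 0.0868 with an intensity trend and robust moderation). fasn-1, fatty acid synthase, was the 1 member of its list that rose, from 7.10, 7.36 and 7.50 to 8.52 and 8.18 (1.03, SE 0.17, limma adjusted p = 0.00375). In the oxidation list acox-1.4, an acyl-CoA oxidase gene, fell by 2.51 to a dim level, and cpt-3, of the carnitine palmitoyl transferases, rose by 2.27.

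Of 19 glycolytic genes 4 fell and none rose (median -0.38), and 0 to 3 fell with any 1 of the 5 arrays left out; 7 fell with an intensity trend and robust moderation, and 8 with dim probes left out. pgk-1, phosphoglycerate kinase, fell by 0.69 (limma adjusted p = 0.0167), and p was 0.0559 to 0.0877 without either day 12 array or without day 6 replicate 2 or 3. pck-1, the gluconeogenic enzyme phosphoenolpyruvate carboxykinase, went from 6.33, 6.35 and 6.28 to 3.95 and 3.64 (-2.53, SE 0.20, limma adjusted p = 4.09e-05). It is 1 of 3 genes that fell among 30 of the citrate and glyoxylate cycles (median -0.19), where 1 to 4 fell with any 1 of the 5 arrays left out and 6 with an intensity trend and robust moderation.

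The machinery of translation and respiration had few calls, and the 3.12% of respiratory genes called lower was near the 2.71% of all genes. Of 72 cytoplasmic ribosomal protein genes 1 rose and none fell (median 0.02), of 68 mitochondrial ribosomal protein genes none was called by limma (median -0.15; 1 higher and 7 lower at an unadjusted p under 0.05), of 38 translation factors 1 rose (median -0.01), and of 64 respiratory chain and ATP synthase genes 2 fell (median -0.08). None of 62 genes in a list of splicing factors, which also holds sideroflexins, was called by limma (median 0.09; 5 higher at an unadjusted p under 0.05).

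Detoxification enzymes fell more often than they rose. UDP-glucuronosyltransferases had 10 of 67 lower and 1 higher (median -0.17; 6 lower without day 12 replicate 2), glutathione S-transferases 9 of 49 lower and 2 higher (median -0.08), and cytochrome P450 genes 9 of 73 lower and 4 higher (median -0.14). ugt-22 read 7.39, 7.37 and 7.24 at day 6 and 4.34 and 4.01 at day 12 (-3.16, SE 0.17, limma adjusted p = 7.3e-06). cyp-35C1 went from 6.03, 5.93 and 5.75 to 3.62 and 3.60 (-2.30, SE 0.15, limma adjusted p = 1.54e-05), and cyp-35A2 fell by 2.51. Among the P450 genes that rose, cyp-33C8 went from 4.36, 4.37 and 4.28 to 6.82 and 7.10 (2.62, SE 0.32, limma adjusted p = 0.000459), and cyp-13A5 rose by 3.17 from a dim level. gst-4, a gene widely used as a reporter of oxidative stress, read 6.41, 6.39 and 6.32 and then 4.61 and 4.71 (-1.71, SE 0.19, limma adjusted p = 0.000294), and gst-27 fell by 2.15.

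Stress response genes were called in small numbers. Of 12 small heat shock protein genes 2 rose and none fell (median -0.06). hsp-16.2, a chaperone gene used as a marker of heat stress and ageing, read 4.48, 3.75 and 4.67 at day 6 and 5.80 and 6.46 at day 12 (1.83, SE 0.29, limma adjusted p = 0.00252), and hsp-43 rose by 1.02. In the list of cytosolic HSP70, HSP90 and related genes 1 of 13 rose, hsp-70 (1.01, from a dim level), and 1 fell.

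Of 24 genes of the endoplasmic reticulum unfolded protein response 6 rose and none fell (median 0.09), but only 0 to 3 rose with any 1 of the 5 arrays left out. xbp-1, its transcription factor, went from 9.18, 9.28 and 9.22 to 10.03 and 10.16 (0.87, SE 0.16, limma adjusted p = 0.00568; 0.0597 without day 12 replicate 2). In the mitochondrial counterpart 1 of 14 rose (median 0).

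Autophagy genes rose in 10 of 35 members with none lower (median 0.29), and in 4 without day 12 replicate 2. sqst-1, the p62 adapter that delivers ubiquitinated cargo, read 6.58, 6.59 and 6.61 at day 6 and 8.66 and 8.68 at day 12 (2.08, SE 0.20, limma adjusted p = 0.000116). epg-2, an adapter of embryonic aggregates, went from 4.56, 4.45 and 4.40 to 6.57 and 6.85 (2.23, SE 0.20, limma adjusted p = 7.41e-05), and the lipid transfer gene atg-2 rose by 0.92. lgg-1, the Atg8 homolog, rose from 10.13, 9.91 and 9.89 to 10.72 and 11.20 (0.98, limma adjusted p = 0.00848; 0.1 without day 12 replicate 2).

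Insulin signalling, the pathway in which the receptor DAF-2 restrains the factor DAF-16, had few calls in its core: 1 of 21 genes rose and none fell (median 0.04). daf-16 read 7.35, 7.41 and 7.53 and then 7.72 and 7.28 (0.07, limma adjusted p = 0.914), and its day 12 arrays spanned the day 6 ones. Of 40 insulin-like peptide genes, the ligands, 6 rose and none fell (median 0.10), and 10 rose without day 12 replicate 1. ins-7, an agonist of the receptor, read 4.39, 4.24 and 4.33 at day 6 and 6.25 and 6.72 at day 12 (2.16, SE 0.19, limma adjusted p = 6.43e-05). ins-23 rose by 2.33, and ins-8 and ins-11 rose by 3.54 and 1.2 from dim levels.

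Genes that respond to DAF-16 had 9 of 32 lower and 3 higher (median -0.27), and 1 higher without day 12 replicate 2. scl-20 went from 5.80, 5.54 and 5.08 to 2.39 and 2.34 (-3.11, a lower bound, SE 0.22, limma adjusted p = 1.97e-05), and dod-3 fell by 1.96 to a dim level. The metallothionein gene mtl-1 read 9.20, 8.64 and 8.37 and then 7.83 and 8.58, so its days overlapped, and it was not called (-0.53, limma adjusted p = 0.504). sod-3, the manganese superoxide dismutase gene, fell by 0.76 (limma adjusted p = 0.0241), and p was 0.0502 to 0.173 in 4 of the 5 fits that leave out a day 6 or day 12 array, and 0.0617 with an intensity trend and robust moderation. sod-4, the extracellular copper and zinc form, rose from 5.32, 5.24 and 5.0 to 6.80 and 7.12 (1.77, SE 0.19, limma adjusted p = 0.000245).

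Neuropeptide genes rose in part. Of 31 FMRFamide-like peptide genes 8 rose and none fell (median 0.23), and 2 rose without day 12 replicate 2. flp-15 read 5.85, 5.88 and 5.99 at day 6 and 8.09 and 9.22 at day 12 (2.75, SE 0.33, limma adjusted p = 0.000435), and flp-16 went from 4.18, 4.08 and 3.79 to 5.10 and 5.31 (1.18, SE 0.17, limma adjusted p = 0.00153). flp-10 rose by 1.2 (limma adjusted p = 0.0516 without day 12 replicate 2). Genes of synaptic release and transmitters had 4 of 40 higher and none lower (median 0.18), and 1 higher without day 12 replicate 2. That share of 10% higher lay between the 6.27% of all genes and the 11.5% of genes with a mean of at least 3. Of 1368 chemoreceptor genes 13 rose (0.95%, beside 6.27% of all genes) and 6 fell (0.439%, beside 2.71%), with a median of -0.05. At day 6, 1343 of them were dim, and at day 12, 1335, so the counts say little about most of the list. With any 1 of the day 6 arrays left out 5 to 8 rose.

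Transthyretin-like genes, a family of small secreted proteins, had 20 of 58 members higher and 6 lower (median 0.36), and 10 higher without day 12 replicate 2. ttr-32 went from 5.54, 5.94 and 5.41 to 7.84 and 8.52 (2.55, SE 0.23, limma adjusted p = 7.41e-05), and ttr-44 from 7.64, 7.33 and 7.65 to 4.66 and 4.54 (-2.94, SE 0.31, limma adjusted p = 0.000207).

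Whether the change after day 6 differed from the change before it was tested in the same fit. The contrast was day 12 minus day 6, less day 6 minus day 1. A call does not show that a change was new, and a missing call does not show that it went on. The intervals are 6 and 5 days long, and the day 6 arrays enter both with opposite sign, so an error in them moves the 2 intervals in opposite directions. The late and early changes differed in 892 of 26128 genes (3.41%), positively in 568 (2.17%) and negatively in 324 (1.24%). The count was 419 with day 6 replicate 3 left out, 422 with replicate 1 and 523 with replicate 2 left out, and 536 with day 12 replicate 2 left out.

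The most negative values belonged to genes that peaked at day 6, a shape that the contrast itself favours. sysm-1 had day means of 5.27, 9.78 and 5.10 at days 1, 6 and 12, so its late difference of -4.68 followed an early one of 4.51 (late minus early -9.19, limma adjusted p = 1.7e-05). C32H11.4 went through 4.79, 8.4 and 3.44 (-8.58, limma adjusted p = 1e-04), asm-3 through 2.66, 6.61 and 2.65 (-7.91, limma adjusted p = 0.000362), and F56D6.9 through 3.12, 7.18 and 3.50 (-7.75, limma adjusted p = 1.7e-05). At day 12 all 4 lay nearer to their day 1 mean than to their day 6 mean.

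The same test also called genes that had risen by day 6 and fell less after it. T22B7.7 went through 3.79, 9.25 and 7.69, and dhs-26, a short-chain dehydrogenase gene, through 3.64, 8.12 and 6.44. The late fall of dhs-26 missed the threshold without day 12 replicate 2 (-1.37, limma adjusted p = 0.0681). mtl-1 went through 2.57, 8.74 and 8.2: its early rise of 6.17 was followed by a late difference of -0.53 that was not called, and the 2 intervals differed by -6.70 (limma adjusted p = 0.000396). Of the immune and stress lists, negative values were called in 13 of 49 lysozyme, saposin-like and thaumatin-like genes, 7 of 12 infection response genes and 9 of 32 DAF-16 responsive genes.

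The most positive values belonged to genes that were flat or falling before day 6, which the contrast also favours. Y46H3A.5, C27H5.6 and fbxc-40 lay at 1.96 to 2.32 at day 1 and 2.01 to 2.14 at day 6. ilys-2 had means of 3.70, 3.71 and 8.23 (late minus early 4.51, limma adjusted p = 0.0122), and cutl-16 of 2.98, 3.05 and 7.02 (3.89, limma adjusted p = 0.000477). aqp-2 fell between days 1 and 6, from 6.68 to 5.79 (-0.90, limma adjusted p = 0.00696), and rose after day 6, to 9.15 (late minus early 4.26, limma adjusted p = 2.32e-05). nspe-7 and msp-45 were higher at day 1, at 4.29 and 4.28, than at day 6, at 2.67 and 2.37, and higher again at day 12, at 5.53 and 4.94; the late rise of msp-45 (2.57, limma adjusted p = 0.0168) was lost with either day 12 array or day 6 replicate 1 or 3 left out, with p from 0.0549 to 0.156.

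In other genes the 2 intervals were not shown to differ. unc-54 changed by -1.78 between days 1 and 6 and by -2.57 between days 6 and 12, and the difference of -0.79 had a limma adjusted p of 0.702. skr-9 rose by 1.76 and then by 1.94 (limma adjusted p of the difference 0.89), and hsp-16.2 by 2.65 and then by 1.83 (0.454). hch-1 rose by 1.46 and then by 3.55, and that difference missed the threshold (2.09, limma adjusted p = 0.0669). Across lists, positive late minus early values were called in 12 of 48 cuticlin and apical matrix genes, 8 of 89 homeobox factors, 17 of 336 F-box genes and 8 of 82 sperm genes, and none of these lists had a negative one.

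**Figure D5:**
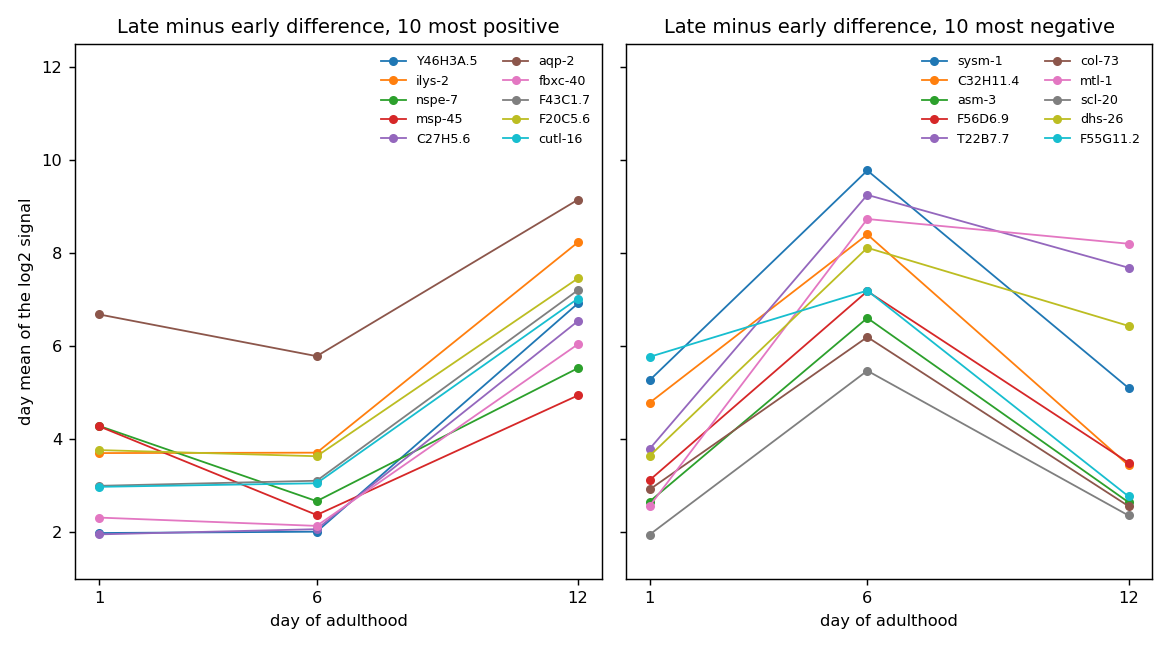
Lines join the day means of the log2 signal (vertical axis) at days 1, 6 and 12 of adulthood (horizontal axis) for the 10 genes with the most positive and the 10 with the most negative called difference between the late and the early interval. On the left most genes stay level or fall to day 6 and rise after it. On the right all rise to day 6 and are lower at day 12, mtl-1 by 0.53 and without a call.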

How the data were processed

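The deposited values are log2 signals, 1 per probe and array, for 8 arrays; per the labels, biotin-labelled total RNA of whole populations was hybridised. The scale is read from the range of the values. How the authors corrected background and normalized is not given in the sources used here. No file holds a detection call or names a batch, and age and a batch that follows it cannot be told apart.

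Of 29317 probes, 26281 had 1 gene symbol in the platform annotation, 480 several and 2556 none. limma 3.58.1 in R 4.3.3 fitted 1 mean for each day over the 8 arrays, with no further normalization or filter. The contrasts were day 12 minus day 6, and that minus day 6 minus day 1. P-values are two-sided, moderated by eBayes and adjusted by Benjamini-Hochberg over 26761 probes with a symbol. Genes were counted by the brightest probe with exactly 1 symbol and called at an adjusted p under 0.05. The procedure was also run on simulated data with independent noise, which hold no outlying array and do not measure the reliability of the calls here.

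Lists are described by counts and medians, with no test. Genes named are the 15 largest rises and 15 largest falls among called genes with a day mean of at least 4, up to 6 members per list with a day mean of at least 3, a few fixed genes (hch-1, col-19, mtl-1, lgg-1, daf-16, unc-54, hsp-16.2, sod-3 and the vit genes), and the 10 most positive and 10 most negative late minus early genes. The comparison, the 60 lists and this rule were chosen with earlier results of these data known. The number of arrays limits the precision. Alternatives were other normalizations, moderation settings, filters, probe choices, a block for the replicate number, and each array left out in turn. No probe sequences or coordinates are shown, since the build is not given in the sources used here.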

Additional observations from a re-analysis of the deposited data

Results flagged for a closer look

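In 892 genes the change from day 6 to day 12 differed from that between days 1 and 6 by a test of the difference itself. The 10 most positive differences, late minus early on the log2 scale, were 4.88 for Y46H3A.5, 4.51 for ilys-2, 4.48 for nspe-7, 4.48 for msp-45, 4.36 for C27H5.6, 4.26 for aqp-2, 4.08 for fbxc-40, 3.99 for F43C1.7, 3.96 for F20C5.6 and 3.89 for cutl-16. The 10 most negative were -9.19 for sysm-1, -8.58 for C32H11.4, -7.91 for asm-3, -7.75 for F56D6.9, -7.03 for T22B7.7, -6.91 for col-73, -6.70 for mtl-1, -6.64 for scl-20, -6.15 for dhs-26 and -5.85 for F55G11.2.

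Probes without a gene symbol enter none of the comparisons. Of these 2556 probes, 115 (4.5%) passed the same threshold at day 12 against day 6 when fitted with the rest, 75 higher and 40 lower.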

How the results depend on the processing

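Leave-one-out fits called 1310 to 2483 genes, 951 to 1699 higher and 359 to 784 lower, and 419 to 900 genes for late minus early, 255 to 606 positive and 157 to 371 negative. Without day 12 replicate 2, 1201 of the 2347 genes kept their call, and without replicate 1, 1625 did. Requiring more than a 1.2-fold change called 1512 genes, 1071 higher and 441 lower. Under quantile normalization 2190 genes were called (61.6% of them higher, 69.8% as reported), 2001 of them among the reported calls, and under cyclic loess 2333 (66.5% higher), 2151 of them shared. Of 151 genes followed over 20 alternatives, 145 were called, and leaving out an array could not turn the sign of a called gene. The 1 that changed sign was daf-16, not called, at -0.16 without day 12 replicate 1 and at 0.29 without replicate 2. Over the 20 alternatives 2944 values kept direction and side of the threshold, 69 lost a call and 6 gained one. The causes were not tested. Signals near the floor limit 63.2% of the genes.

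Replicate numbers are shared between the days. Deviations of same-numbered day 6 and day 12 arrays correlated at -0.23 and -0.10, and those of day 1 and day 12 arrays at 0.25 and 0.12. For day 1 and day 6 arrays the values were -0.2, -0.04 and -0.06. The deviations of the 2 day 12 arrays mirror each other, so these values cannot decide whether the numbers mark a pairing. With the replicate number as a block 2004 genes were called, 1416 higher and 588 lower, and 759 for late minus early. Among named genes the block ended the calls of vit-6, sod-3 and perm-2. An intensity trend with robust moderation ended those of col-140, col-8, col-19, col-80, tnt-2, fat-7, ilys-3 and sod-3, requiring more than a 1.2-fold change those of vit-6, rme-2, ilys-3, pgk-1, sod-3, lin-41 and perm-2, cyclic loess that of vit-6, and adjusting over all probes those of vit-6 and ilys-3. With 1 array left out, medians turned sign in the replication, cytoplasmic ribosomal, translation factor, respiratory chain, insulin core, small heat shock and epidermis lists. These medians were small, and turned to between -0.12 and 0.06. Signs also turned in the chitinase, cytosolic HSP70, aquaporin, hedgehog-related and lipid-binding lists, the last from -0.15 to 0.35 without day 12 replicate 1.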

Other observations

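Some families outside the lists above had a large share of called members. They were picked after their values were seen, from 346 families of at least 6 genes that share a name prefix, so the counts are descriptions. Of 6 measured rrn genes, which encode ribosomal RNA, 4 rose, all of them rrn-4 genes of the 5S RNA: rrn-4.15 rose by 3.18, from a day 6 mean of 4.07 to 7.25, and rrn-4.5 by 3.17, while rrn-2.1 was not called (-0.34). Of 8 hil genes, which encode linker histones, 4 rose and none fell; hil-3 rose by 3.1, from 4.0 to 7.1. Of 13 nspc genes 8 fell and none rose (median -1.35), and of 14 nspg genes 8 fell and none rose (median -1.48); nspg-9 fell by 2.43 on the log2 scale, from 9.88 to 7.45. Of 13 alh genes, the aldehyde dehydrogenases, 6 fell and none rose (median -0.65).

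Called genes lay next to one another on the chromosome more often than genes in general had a called neighbour. Of 1493 protein-coding genes called higher, 411 (27.5%) had an adjacent protein-coding gene called higher, against 16% of all 17479. Of 641 called lower, 16% had an adjacent gene called lower, against 7.12% of all.

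Genes with a sequence name only made up 57.5% of all genes, 46% of those called higher and 36.4% of those called lower. Of 6678 genes annotated as non-coding RNA, 105 were called higher (1.57%) and 20 lower (0.299%). Among 17479 protein-coding genes 8.54% were called higher and 3.67% lower.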
